A study of Mus musculus with 4 samples.

Results

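Some of the cell barcodes in these droplet libraries carried an unusually large share of mitochondrial RNA, and the filter used in the study removes them. They are described here as a population of their own. A barcode was chosen by 2 measured values, more than 400 detected genes and 10% or more of its UMIs (unique molecular identifiers, each a counted RNA molecule) in the 13 genes whose symbols begin with mt-. This rule found 728 of the 23997 barcodes over 400 genes, with 310 of 9217 in vehicle 1, 294 of 9679 in vehicle 2 and 124 of 5101 in EV 1. They are called high-mitochondrial barcodes below, and the other 23269 are called low-mitochondrial barcodes. The cells were primary spermatogonial cultures started from 3 male mice at postnatal day 6 by magnetic selection for Thy1 and kept on STO feeder cells, a mouse fibroblast line, so that germ cells and fibroblast-type cells can both be present. Vehicle cultures had received PBS, and EV cultures had received 1 µg/mL of extracellular vesicles (EVs) from testes at postnatal day 7, in each case for 3 days. Of the 3 libraries with counts 2 were vehicle and 1 was EV, so the arms were not tested against each other, and the labels do not say which mice gave which library. EV 2 was not analysed here beyond its list of barcodes.

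The mitochondrial genome encodes 13 proteins, all of them subunits of the respiratory chain or of ATP synthase, and their mRNAs are made and kept inside the organelle. The other subunits of the same complexes are encoded in the nucleus, and their mRNAs are translated in the cytosol. In single-cell work a large mitochondrial share is widely used as a sign of a damaged or stressed cell, and it also differs between cell types with many and with few mitochondria. Which of these applies to a given barcode was not tested here.

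The high-mitochondrial barcodes made up 3.36% of the barcodes over 400 genes in vehicle 1 (95% Wilson interval 3.01% to 3.75%), 3.04% in vehicle 2 (2.71% to 3.40%) and 2.43% in EV 1 (2.04% to 2.89%). The intervals cover counting error only. The vehicle libraries were close to each other, and the EV library was lower than both, with an interval that overlapped that of vehicle 2. This order depended on the minimum of genes, since with 800 the shares were 1.17%, 0.861% and 1.23%, with EV 1 the highest. High-mitochondrial barcodes held 1.56%, 1.16% and 1.35% of all UMIs in vehicle 1, vehicle 2 and EV 1. A further 31, 30 and 10 barcodes reached 10% with 400 genes or fewer and were not members. No member had 4000 genes or more, which is the upper limit of the study's filter, and no member's barcode sequence occurred among the members of another library, although 12 to 20 barcodes were shared between pairs of these libraries.

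The mitochondrial share is the value that chose the members, so it is given as a description. Its median in the high-mitochondrial barcodes was 13.6% in vehicle 1, 13.2% in vehicle 2 and 11.9% in EV 1, against 3.29%, 2.97% and 1.85% in the low-mitochondrial barcodes. The highest value of a single barcode was 28.2%, 45.5% and 28.9%. A share of 20% or more was reached by 30 barcodes of vehicle 1, 21 of vehicle 2 and 3 of EV 1, so most members sat between 10% and 20%. The distribution had no gap at the threshold. Just inside it, from 10% to under 11%, were 61, 55 and 34 barcodes with median nuclear-encoded UMIs of 1138, 858 and 963.5, and just outside it, from 9% to under 10%, were 84, 58 and 52 barcodes with medians of 1102, 1015 and 947.5 (vehicle 1, vehicle 2 and EV 1).

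**Figure D1:**
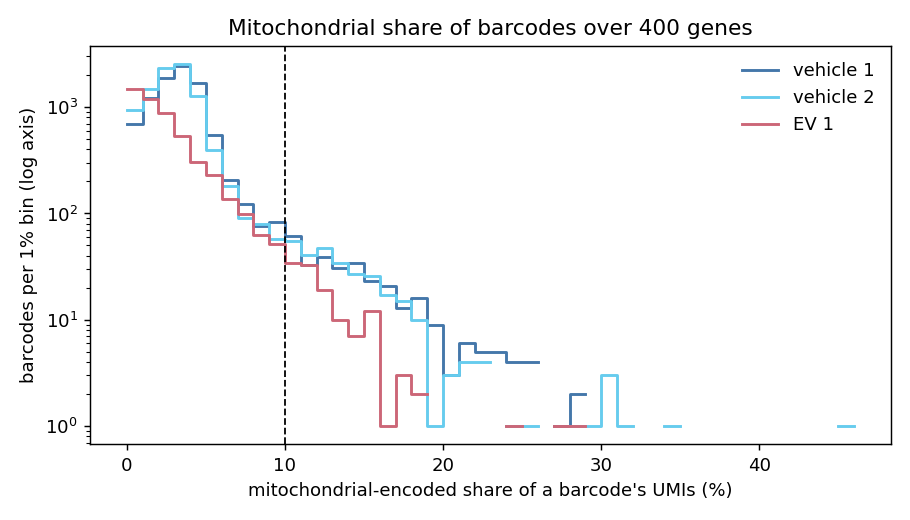
Number of barcodes over 400 genes (y axis, log scale, per 1% bin) by the percentage of their UMIs in mitochondrial-encoded genes (x axis) in vehicle 1, vehicle 2 and EV 1. The dashed line is the threshold of 10%, which falls on a continuous tail, and 3.36%, 3.04% and 2.43% of the barcodes lie at or beyond it.

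All 13 mitochondrial-encoded mRNAs were detected in each library. mt-Co1, a catalytic subunit of cytochrome c oxidase, averaged 30.5 UMIs per high-mitochondrial barcode in vehicle 1, 27.0 in vehicle 2 and 38.9 in EV 1, against 16.0, 16.0 and 12.6 in the low-mitochondrial barcodes. mt-Nd1, a subunit of complex I, averaged 9.01, 9.20 and 6.69 against 4.88, 5.11 and 2.01. mt-Cytb, the cytochrome b of complex III, averaged 18.1, 16.2 and 15.5 against 8.15, 7.96 and 4.78. These 3 markers were therefore higher per barcode in absolute UMIs in all 3 libraries, as the rule favours. Within the mitochondrial UMIs, the ratio of a gene's share in members to that in low-mitochondrial barcodes of the same library ran from 0.765 to 1.38 over the genes and libraries, with both ends set by mt-Nd6, a subunit of complex I, in EV 1 and vehicle 1. mt-Co1 held 18.3%, 18.1% and 26.5% of the mitochondrial UMIs of the members against 20.6%, 20.7% and 28.2%, and mt-Co2 held 19.1%, 18.3% and 20.9% against 18.1%, 17.6% and 18.6%. The larger mt-Co1 share of EV 1 was thus present in its members and in its other barcodes alike. The genes lie on the mitochondrial chromosome (GRCm38), mt-Nd1 at positions 2751 to 3707, mt-Co1 at 5328 to 6872 and mt-Cytb at 14145 to 15288, all on the plus strand.

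High-mitochondrial barcodes were shallow in nuclear-encoded RNA and not only rich in mitochondrial RNA. Their median nuclear-encoded UMIs were 719.5 in vehicle 1, 675 in vehicle 2 and 923.5 in EV 1, against 2010, 2211 and 1757, which is 0.358, 0.305 and 0.526 of the low-mitochondrial median. Their median mitochondrial UMIs were 124, 115 and 134.5 against 67, 67 and 35. The rule divides one of these quantities by their sum, so both differences are descriptions without a test. Fewer nuclear-encoded UMIs can come from less RNA in the droplet or from poorer capture, and these cannot be told apart.

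Members were sorted by which of 2 sums of UMIs was larger, the germ sum of Dazl, Tex15, Stk31 and Epcam, or the fibroblast sum of Col1a1, Col1a2, Sparc and Dcn. Dazl is an RNA-binding protein of germ cells and Epcam an adhesion molecule of undifferentiated spermatogonia, while Col1a1 and Col1a2 are the chains of type I collagen. In vehicle 1 the members held 118 germ-led, 117 fibroblast-led and 75 tied barcodes. In vehicle 2 they held 143, 83 and 68, and in EV 1 they held 4, 73 and 47. Both vehicle libraries thus had members of both kinds, and EV 1 had almost no germ-led member, in a library where 330 of 4977 low-mitochondrial barcodes were germ-led. Neither sum had a UMI in 20.0%, 18.03% and 37.1% of the members, against 6.28%, 5.62% and 20.7% of the low-mitochondrial barcodes, so a tie was often an absence of counts. Both sums reached 2 UMIs or more in 6, 5 and 0 members, or 1.94%, 1.70% and 0%. Of the low-mitochondrial barcodes, which are deeper, 3.72%, 3.59% and 0.161% did.

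The share of members was larger among fibroblast-led than among germ-led barcodes in vehicle 1, where it was 3.91% (3.28% to 4.67%) against 2.18% (1.82% to 2.61%). In vehicle 2 it was 2.65% (2.15% to 3.28%) against 2.46% (2.09% to 2.89%), with overlapping intervals. In EV 1 it was 1.99% (1.59% to 2.49%) against 1.198% (0.467% to 3.04%), again overlapping. Among tied barcodes, which are shallow, it was 9.17%, 9.33% and 4.28%.

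The depth gap differed between the kinds. Fibroblast-led members had median nuclear-encoded UMIs of 1346, 1264 and 983 in vehicle 1, vehicle 2 and EV 1, and germ-led members had 603 in vehicle 1 and 623 in vehicle 2. The low-mitochondrial medians were 3201.5, 3590.5 and 2119 for fibroblast-led barcodes and 1855.5 and 2018 for germ-led barcodes. Germ-led members therefore sat close to the lower limit set by 400 genes, and fibroblast-led members spread over a wider range.

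**Figure D2:**
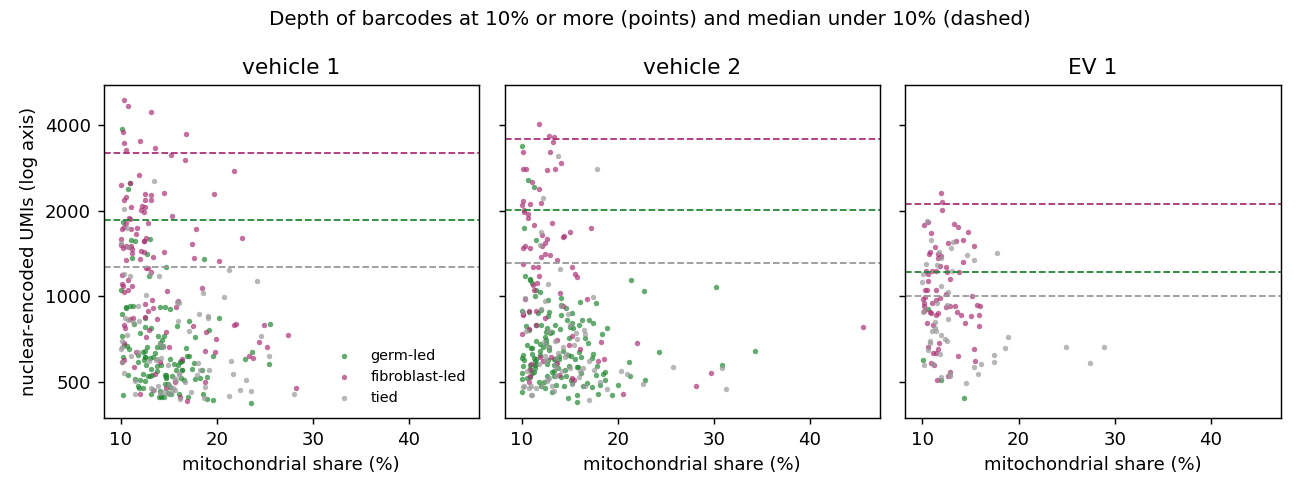
Nuclear-encoded UMIs (y axis, log scale) against the mitochondrial share in percent (x axis) for each of the 728 high-mitochondrial barcodes, by library and coloured by the larger sum. Dashed lines are the median of low-mitochondrial barcodes of the same kind, and most members of vehicle 1 and vehicle 2 lie under the line of their kind (germ-led medians 603 and 623 against 1855.5 and 2018).

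Since class calls need counts, each barcode was also thinned at random to 500 nuclear-encoded UMIs, which left out 46, 37 and 2 members with fewer. At that depth 33.7% of members of vehicle 1 were germ-led against 41.7% of the low-mitochondrial barcodes, a difference of -7.97 percentage points (95% interval -13.5 to -1.98). In vehicle 2 the values were 45.1% and 42.6%, a difference of 2.55 points (-3.50 to 8.74). In EV 1 they were 2.46% and 4.63%, a difference of -2.17 points (-3.91 to 2.38). The vehicle libraries therefore differed in sign, and only the interval of vehicle 1 left out 0. With a class lead of at least 2 UMIs the differences were -2.28, 4.85 and -1.24 points, so that the difference in vehicle 1 was much smaller. Without thinning the differences were -21.3, -11.9 and -3.40 points. Thinned to 1000 UMIs, where 98, 71 and 51 members remain, they were -44.3, -36.3 and -5.52 points. These deeper members were mainly fibroblast-led (59.2%, 52.1% and 62.7%), against 27.1%, 27.3% and 64.8% of the low-mitochondrial barcodes. In EV 1 they were thus no more often fibroblast-led than its other barcodes (-2.07 points, -15.9 to 9.96). Which kind of cell the members came from thus depended on the depth at which they were looked at.

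At 500 nuclear-encoded UMIs the members had more genes per barcode than the low-mitochondrial barcodes. The medians were 426 against 410 in vehicle 1, 437 against 413 in vehicle 2 and 399 against 375 in EV 1. The same number of UMIs was thus spread over more genes. The minimum of detected genes applied to both groups, but the members were shallower. A shallow barcode passes that minimum only if its UMIs fall on many genes, which favours this difference. The part of the minimum in it was not tested. Thinned to 1000 UMIs, members had 19.5, 3 and 73 more genes in vehicle 1, vehicle 2 and EV 1.

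A common feature of the members outside the mitochondrial genes was a low share of cytosolic ribosomal protein mRNA, an abundant class of short transcripts that code for the proteins of the ribosome. At 500 nuclear-encoded UMIs, ribosomal protein genes held a median of 6.50% of the UMIs of a member in vehicle 1, 5.80% in vehicle 2 and 4.40% in EV 1, against 17.2%, 16.2% and 16.2% in low-mitochondrial barcodes. A share of 10% or less was found in 78.8% (95% interval 73.5% to 83.3%), 87.5% (83.0% to 91.0%) and 91.8% (85.6% to 95.5%) of members, and in 12.1%, 13.4% and 36.8% of low-mitochondrial barcodes. Such barcodes were therefore the large majority of the members in each library but were not confined to them, since 1074, 1260 and 1826 low-mitochondrial barcodes also had this property. Among germ-led members, classed on all their UMIs, 67.0% of vehicle 1 and 81.6% of vehicle 2 had it, against 3.90% and 6.25% of germ-led low-mitochondrial barcodes. Among fibroblast-led members 90.1%, 92.5% and 93.2% of vehicle 1, vehicle 2 and EV 1 had it, against 21.7%, 22.3% and 32.2%.

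The ribosomal protein share fell along the mitochondrial share before the threshold was reached. In vehicle 1 its mean was 17.4% in barcodes with 2% to 5% mitochondrial UMIs, 14.7% from 5% to 8%, 7.18% from 8% to 10% and 8.34% from 10% to 12%. In vehicle 2 the same bins had 16.4%, 12.5%, 7.37% and 6.24%, and in EV 1 they had 15.7%, 8.39%, 5.16% and 6.07%. Malat1, a long noncoding RNA kept in the nucleus, moved the other way, from 1.99% to 8.84% of nuclear-encoded UMIs between the bins of 2% to 5% and 8% to 10% in vehicle 1, from 2.13% to 7.29% in vehicle 2 and from 5.97% to 13.2% in EV 1. Beyond 10% Malat1 did not go on rising, with 5.62%, 4.00% and 9.80% at 15% or more. Malat1 did not rise along the whole range, since barcodes under 2% had 3.62%, 3.85% and 6.58%, above the next bin. The kinds of barcode changed along the bins too. From 2% to 5% germ-led barcodes made up 52.97% in vehicle 1 and 55.3% in vehicle 2 and fibroblast-led barcodes 13.6% and 11.5%, while from 8% to 10% the shares were 22.0% and 23.7%, and 33.3% and 31.1%. Their part in these trends was not tested.

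**Figure D3:**
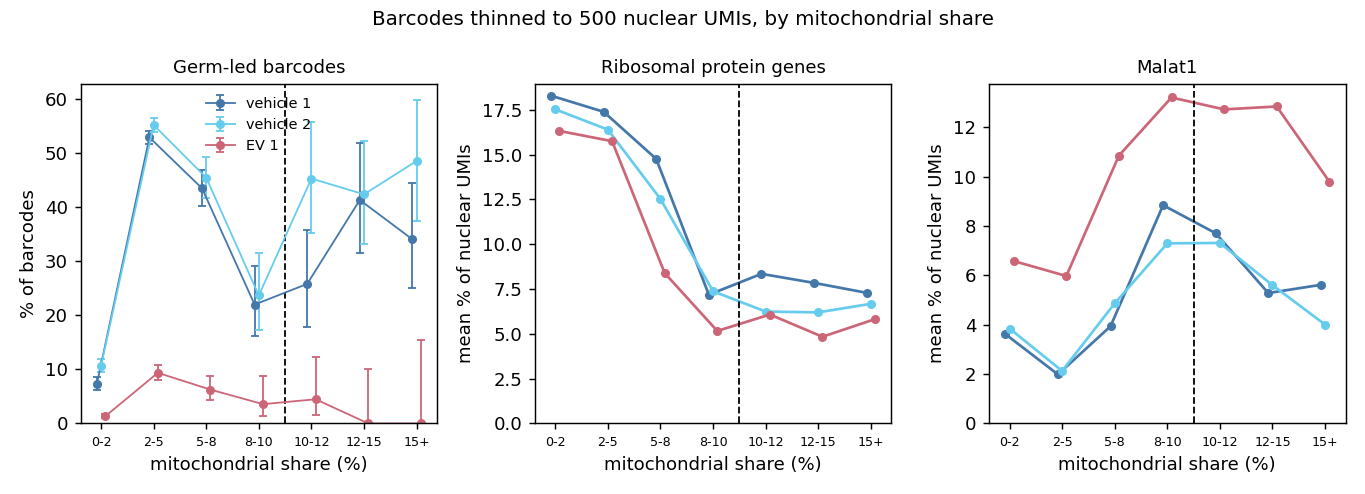
Barcodes thinned to 500 nuclear-encoded UMIs, by mitochondrial share (x axis, bins in percent, dashed line at 10%) in vehicle 1, vehicle 2 and EV 1. The panels give the percentage of germ-led barcodes (bars are 95% Wilson intervals) and the mean percentage of nuclear-encoded UMIs in ribosomal protein genes and in Malat1. The ribosomal protein share drops from 17.4% to 7.18% between 2% to 5% and 8% to 10% in vehicle 1.

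For the test of nuclear gene content, UMIs were summed over the members and over the low-mitochondrial barcodes of each library, the mt- genes were removed, and both sums of a library were compared with the library as a term (edgeR quasi-likelihood test, Benjamini-Hochberg adjusted p under 0.05). Cells were not treated as replicates. The p-values rest on the spread between library sums, with each gene's estimate drawn toward those of other genes. With so few libraries a gene's own spread weighs little in them, so very small p-values do not measure that spread gene by gene. Over all barcodes in 3 libraries, 1683 of 16111 genes were higher in members (10.4%) and 3267 were lower (20.3%). Within germ-led barcodes of vehicle 1 and vehicle 2, 483 of 14263 genes were higher (3.39%) and 1843 lower (12.9%). EV 1 was left out of that fit because its 4 germ-led members held 2449 nuclear-encoded UMIs. Within fibroblast-led barcodes of all 3 libraries, 1016 of 13856 genes were higher (7.33%) and 2463 lower (17.8%). Without vehicle 1 the fibroblast-led counts were 278 higher and 1672 lower, and without vehicle 2 they were 415 and 1979. Over all barcodes they were 677 and 2221 without vehicle 1 and 559 and 2077 without vehicle 2, while without EV 1 the counts of either comparison stayed within 1.5 times the full ones.

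The split between higher and lower depends on the scale. The fits used TMM (trimmed mean of M-values) scaling, which sets the bulk of genes to no change. With nuclear totals in its place the genes shifted up by a median of 0.55 (log2) in germ-led and 0.70 in fibroblast-led barcodes, and the calls became 1426 higher and 819 lower, and 3562 higher and 1275 lower. With DESeq2 size factors the shift was 0.11 in both and the calls were 621 and 1595, and 1369 and 2220. Over all barcodes the higher calls made up 34.0% of calls with TMM, 44.8% with size factors and 71.9% with nuclear totals. Levels below are therefore given as nuclear CPM (UMIs scaled to one common total of nuclear-encoded UMIs), which carry no scaling factor, and fold changes as fitted log2 values on the TMM scale. Barcodes said below to be of like depth were shallower than low-mitochondrial barcodes as a whole, yet deeper than the members. Their median nuclear-encoded UMIs in fibroblast-led barcodes were 2035.5, 2040.5 and 1231 (vehicle 1, vehicle 2 and EV 1), against 1346, 1264 and 983 in members. In germ-led barcodes of vehicle 1 and vehicle 2 they were 1301 and 975, against 603 and 623. Depth was thus brought nearer but not matched.

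The cytosolic ribosomal protein genes were lower nearly throughout. In fibroblast-led barcodes 81 of 82 tested genes passed as lower and none as higher, with a median log2 fold change of -2.63 against -0.06 for all genes tested. In germ-led barcodes 79 of 82 were lower, with a median of -1.44 against -0.25. The shares of all tested genes called lower were 17.8% in fibroblast-led and 12.9% in germ-led barcodes. As a group they held 4.82%, 4.31% and 5.47% of nuclear-encoded UMIs in fibroblast-led members of vehicle 1, vehicle 2 and EV 1, against 18.8%, 18.2% and 18.2%, and 10.2% and 7.37% in germ-led members of vehicle 1 and vehicle 2, against 16.9% and 15.9%. Rps12, a protein of the small ribosomal subunit, stood at 726, 571 and 1032 nuclear CPM in fibroblast-led members against 3634, 3642 and 3647, so that all 3 members' sums were below all 3 others (log2 -2.98, SE 0.14, adjusted p = 1.5e-99, edgeR). Tpt1, a translationally controlled protein whose short mRNA is regulated like those of ribosomal proteins, stood at 1138, 1242 and 1690 against 6263, 6099 and 5620. The number of ribosomal protein genes called lower stayed between 80 and 81 of those tested in fibroblast-led barcodes and between 72 and 80 in germ-led barcodes over the alternatives tried.

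Nuclear-encoded subunits of the respiratory chain and of ATP synthase were called lower. Complex II, which has no subunit encoded in the mitochondrial genome, is part of these lists. Over all tested genes 17.8% were lower in fibroblast-led barcodes (median log2 -0.06) and 12.9% in germ-led barcodes (-0.25). For complex I, the NADH dehydrogenase, 36 of 37 genes were lower in fibroblast-led barcodes (median log2 -2.09) and 32 of 37 in germ-led barcodes (-1.36), with none higher in either. For complexes II to IV, 23 of 24 and 19 of 24 were lower (-2.01 and -1.20). For ATP synthase, all 16 tested were lower in both (-2.22 and -1.47). With nuclear totals as the scale, 34, 21 and 15 of these genes were lower in fibroblast-led and 16, 11 and 11 in germ-led barcodes, again with none higher. Uqcrh, a small subunit of complex III, had 206, 252 and 124 nuclear CPM in fibroblast-led members against 879, 870 and 732 (log2 -2.76, SE 0.16, adjusted p = 1.68e-60, edgeR). Atp5g1, a membrane subunit of ATP synthase, had 416 and 240 in germ-led members against 856 and 819 (log2 -1.93, SE 0.23, adjusted p = 2.84e-14, edgeR). The 1 complex I gene that was not called in fibroblast-led barcodes was Ndufs1, and for complexes II to IV it was Sdha. Among protein-coding genes under 5 kb long with introns included, 53.7% were lower in fibroblast-led barcodes (median log2 -1.77) and 32.6% in germ-led barcodes (-1.40). The part of gene length in the calls of these lists was not tested.

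Other lists of mitochondrial genes had a smaller share of members called, and the difference between lists was not tested. Of 15 genes for mitochondrial import and proteostasis, 8 were lower in fibroblast-led and 9 in germ-led barcodes, among them Hspe1, the small mitochondrial chaperonin, at 177, 134 and 162 nuclear CPM in fibroblast-led members against 442, 408 and 276. Of 17 genes for mitochondrial gene expression, 4 were lower in fibroblast-led and 2 in germ-led barcodes, shares close to the 17.8% and 12.9% of all tested genes. Their summed level in fibroblast-led members was 109%, 114% and 91.8% of the low-mitochondrial level. Slirp, a stabiliser of mitochondrial mRNA, was the gene of that list with the smallest p in both kinds of barcode, and was lower. Its germ-led call was lost with DESeq2, with nuclear totals as the scale and with a class lead of 3 UMIs. Of 14 genes for mitophagy and mitochondrial dynamics, 2 were higher and 7 lower in fibroblast-led barcodes, and 3 were lower in germ-led barcodes. Among the higher ones was Mfn1, a fusion factor, at 97.2, 101 and 87.0 nuclear CPM against 33.5, 37.7 and 35.6. It lost its call without vehicle 1, without vehicle 2 and without EV 1 (edgeR adjusted p = 0.337, 0.170 and 0.0755), as well as with DESeq2, without a filter on low counts, at like depth and with a class lead of 3 UMIs. The median of this list changed sign in both kinds of barcode with nuclear totals as the scale, to 0.01 and 0.33, as did that of mitochondrial gene expression in germ-led barcodes, to 0.27.

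Some of the RNAs kept in the nucleus were called higher, with calls that depended on the setting. Of 6 tested in fibroblast-led barcodes 3 were higher and none lower (median log2 0.73), and of 7 tested in germ-led barcodes 1 was higher and none lower (0.40). Of all tested genes 7.33% and 3.39% were higher. Malat1 had 106485, 110625 and 126466 nuclear CPM in fibroblast-led members against 32780, 35928 and 52937, which put all members' sums above all others (log2 0.82, SE 0.15, adjusted p = 8.26e-07, edgeR). That call was lost without vehicle 1 (log2 0.71, adjusted p = 0.214, edgeR), without vehicle 2 (0.73, adjusted p = 0.156) and against low-mitochondrial barcodes of like depth (0.46, adjusted p = 0.627), with the direction kept in each. In germ-led barcodes it had 24086 and 33452 against 16254 and 17725 and did not pass (log2 0.19, SE 0.40, adjusted p = 0.838, edgeR). Neat1, the RNA scaffold of nuclear paraspeckles, had 1212, 1317 and 1032 in fibroblast-led members against 396, 368 and 514 (log2 0.82, SE 0.12, adjusted p = 5.7e-11, edgeR), and 0.46 with adjusted p = 0.0739 against barcodes of like depth. It also lost its call with a class lead of 3 UMIs (0.58, adjusted p = 0.0615, edgeR). Kcnq1ot1, an imprinted RNA that acts at its own locus, had 624 and 788 against 221 and 263 in germ-led barcodes (log2 1.00, SE 0.16, adjusted p = 3.75e-08, edgeR). In fibroblast-led barcodes it was called too, but not without vehicle 1 (edgeR adjusted p = 0.936), with DESeq2, without a filter on low counts, without the library as a term, at like depth or with a class lead of 3 UMIs. Malat1 alone made up most of the summed level of this list, which was 325%, 308% and 238% of the low-mitochondrial level in fibroblast-led members and 150% and 190% in germ-led members of vehicle 1 and vehicle 2.

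**Figure D4:**
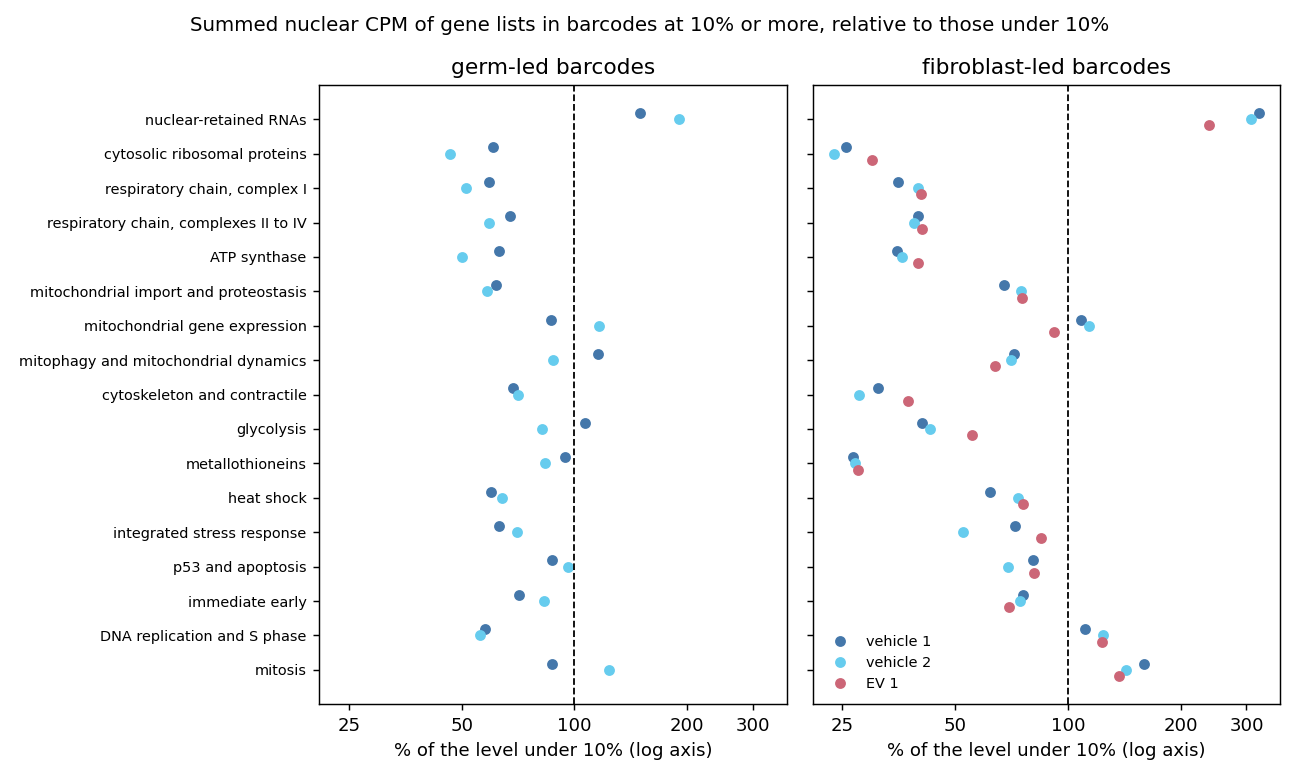
Summed nuclear CPM of gene lists in high-mitochondrial barcodes as a percentage of the low-mitochondrial level of the same library (x axis, log scale, dashed line at 100%), for germ-led barcodes of vehicle 1 and vehicle 2 and fibroblast-led barcodes of all 3 libraries. Each point is 1 library without an error bar, and nuclear-retained RNAs (325%, 308% and 238% in fibroblast-led barcodes) and ribosomal protein genes (25.6%, 23.7% and 30.04%) are far apart.

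Fold changes followed the genomic span of a gene, the distance from its first to its last base with introns included. Spans came from the GENCODE M21 annotation of GRCm38, in which 99.9% of the tested genes were found. That is not the release the study names, and whether intronic reads were counted is not given in the sources used here. Protein-coding genes called higher in fibroblast-led barcodes had a median span of 135 kb and those called lower 10.7 kb, against 27.2 kb for all tested. In germ-led barcodes the medians were 184 kb, 11.8 kb and 26.5 kb. The median log2 fold change of genes under 5 kb was -1.77 in fibroblast-led and -1.40 in germ-led barcodes, and it rose with each longer bin to 0.60 and 0.63 at 150 kb or more. Of genes at 150 kb or more, 29.98% and 19.7% were called higher and 0.806% and 0.339% lower, while of genes under 5 kb 0.709% and 0.464% were called higher and 53.7% and 32.6% lower. The order of the bins was the same with nuclear totals as the scale, from -1.08 to 1.30 and from -0.85 to 1.18, and against low-mitochondrial barcodes of like depth, from -1.40 to 0.44 and from -1.21 to 1.01. Noncoding genes held 20.9% of the genes called higher in fibroblast-led barcodes and 2.03% of those called lower, against 11.5% of all tested. Genes are not independent replicates, and these shares are descriptions of the calls.

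**Figure D5:**
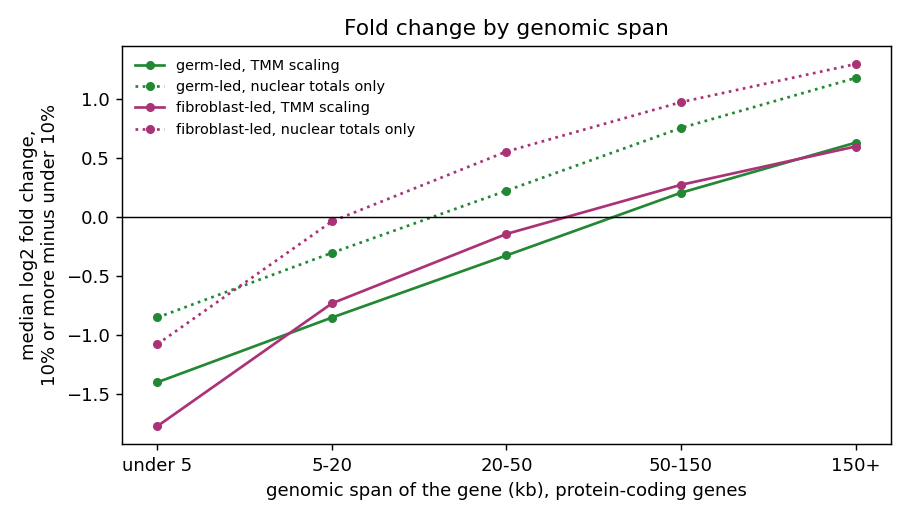
Median log2 fold change of protein-coding genes (y axis, high-mitochondrial minus low-mitochondrial) by genomic span in kb (x axis), for germ-led and fibroblast-led barcodes with TMM scaling and with nuclear totals only. Both scales rise with each longer bin, from -1.77 to 0.60 in fibroblast-led barcodes with TMM.

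The genes with the smallest p among those higher, chosen after their values were seen, included several noncoding or antisense genes. Lrrc4, a synaptic adhesion protein whose annotated span on chromosome 6 from 28661831 to 28831747 lies inside that of a gene on the other strand (Snd1), was higher in both kinds of barcode. In fibroblast-led members it had 326, 319 and 261 nuclear CPM against 40.4, 44.9 and 77.2 (log2 1.92, SE 0.19, adjusted p = 3.75e-23, edgeR), and in germ-led members 451 and 528 against 81.1 and 89.5 (log2 1.98, SE 0.19, adjusted p = 1.66e-22, edgeR). Aspn, an extracellular matrix protein on chromosome 13 from 49544443 to 49567565, overlaps Cenpp on the other strand and rose in germ-led barcodes from 13.5 and 16.8 to 150 and 231 nuclear CPM (log2 3.11, SE 0.39, adjusted p = 2.1e-13, edgeR). Whether strand was used in counting is not given in the sources used here, so the values of Lrrc4, Aspn and other overlapping or antisense genes are uncertain. AY036118, on chromosome 17 from 39847113 to 39848035, lies inside Gm42418 on the opposite strand and had 2380 and 2478 in germ-led members against 451 and 433 (log2 1.91, SE 0.17, adjusted p = 4.13e-26, edgeR). It was also higher in fibroblast-led members, with 1270, 1712 and 1914 against 372, 391 and 764, though not against barcodes of like depth (log2 0.29, adjusted p = 0.349, edgeR). Its neighbour Gm26917 was higher in both kinds too, but 134 of its 236 UMIs in fibroblast-led members of vehicle 1 came from a single barcode.

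Among the genes with the smallest p that were lower, again chosen after their values were seen, were abundant mRNAs of many roles. In germ-led barcodes Stmn1, a regulator of microtubules, had 266 and 250 nuclear CPM in members against 1075 and 1017 (log2 -2.57, SE 0.25, adjusted p = 8.22e-21, edgeR). Snrpf, a core protein of the spliceosome, had 139 and 211 against 765 and 729, and H3f3a, which encodes histone H3.3, had 393 and 375 against 1280 and 1230. In fibroblast-led barcodes Tmsb4x, which binds actin monomers, had 612, 344 and 945 against 2539, 2419 and 3508 (log2 -2.90, SE 0.14, adjusted p = 3.46e-93, edgeR). In all of these genes the members' sums lay below the low-mitochondrial sums of every library in the fit.

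The largest fold changes by the fixed rule (adjusted p under 0.05 and the same direction in each library) rested on few molecules. All 10 such genes lower in germ-led barcodes, among them Hoxb4, had no UMI in any member's sum, and with a floor of 3 counts over the pooled libraries they were at least 1.94-fold to at least 3.30-fold lower. All 10 in fibroblast-led barcodes, led by Rps27rt and Ptrhd1, were likewise without a UMI and at least 2.13-fold to at least 3.03-fold lower. The 10 with the largest increase had 4 to 10 UMIs in germ-led members, led by Cryba1 and Arhgap15, and 4 to 19 in fibroblast-led members, led by Gm20754. Of the 16 Gm20754 UMIs in fibroblast-led members of vehicle 2, 14 came from a single barcode, and the call was lost without that library (edgeR adjusted p = 0.446). Over all barcodes the rule named Gm35166 and Serpinb3b first among genes higher, with 8 and 4 UMIs, and Fxyd2 first among genes lower, with none.

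Calls were partly shared between the kinds, which have no barcode in common. Among 12192 genes tested in both, 227 were higher in both, which is 48.2% of the germ-led and 25.1% of the fibroblast-led calls. For lower genes 1204 were shared, 66.1% and 49.2% of the calls. Of the genes higher in germ-led barcodes, 22 were lower in fibroblast-led barcodes. Of all genes tested in both kinds, 7.41% were higher and 20.1% lower in fibroblast-led barcodes, and 3.86% were higher and 14.9% lower in germ-led barcodes.

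Those opposite calls included fibroblast genes. Of 15 tested fibroblast markers outside the class sum, 4 were higher in germ-led barcodes and none lower, namely Fn1, Vim, Lgals1 and S100a6, where 3.39% of all tested genes were higher. Fn1, the matrix protein fibronectin, had 404 and 423 nuclear CPM in germ-led members against 149 and 140 (log2 0.98, SE 0.19, adjusted p = 4.7e-06, edgeR), and Vim, the filament protein vimentin, had 451 and 394 against 186 and 158. In fibroblast-led barcodes Vim had 783, 982 and 1094 against 1903, 1931 and 2355, and S100a6, Lgals1, Vim, Timp1, Thy1 and Loxl1 were lower there, 6 of 18 tested. In Vim the kinds thus stood closer together among members than among low-mitochondrial barcodes. The higher calls in germ-led barcodes depended on how the class was drawn and on other settings. With a lead of at least 3 UMIs in the germ sum none of the 4 passed, with log2 values from 0.34 to 0.53, and with DESeq2 only Fn1 did. S100a6 also lost its call without a filter on low counts (edgeR adjusted p = 0.0915) and against barcodes of like depth (0.245). Of the lower calls in fibroblast-led barcodes, that of Thy1 was lost without vehicle 1 (edgeR adjusted p = 0.313) and with DESeq2, nuclear totals, barcodes of like depth and a class lead of 3, and that of Loxl1 in most of the alternatives, among them without either vehicle library (0.338 and 0.361) and with nuclear totals as the scale, where its log2 value was 0.05. The summed level of the whole list was 225% and 217% of the low-mitochondrial level in germ-led members and 51.7%, 60.2% and 51.8% in fibroblast-led members. Of 20 germ cell markers outside the class sum, 5 were lower in germ-led barcodes and none higher, where 12.9% of all tested genes were lower, among them Uchl1, a ubiquitin hydrolase of spermatogonia, at 104 and 115 against 334 and 340. That list's median of -0.81 became 0.07 against barcodes of like depth, so no direction is given for it. None of 15 was called in fibroblast-led barcodes, where their sum rested on 29, 24 and 4 UMIs. The part of free RNA or mixed droplets in these values was not tested.

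Counts for stress and death genes are set beside the shares of all tested genes, of which 3.39% were higher and 12.9% lower in germ-led barcodes and 7.33% higher and 17.8% lower in fibroblast-led barcodes. Of 12 tested heat shock genes in germ-led and 9 in fibroblast-led barcodes, 6 and 7 were lower and none higher, with Hsp90ab1, a cytosolic chaperone, at 1578, 1728 and 1553 nuclear CPM in fibroblast-led members against 2903, 3000 and 2314. For the integrated stress response, which is driven by Atf4, 4 of 11 and 3 of 12 were lower and none higher. For p53 targets and apoptosis genes 3 of 16 were lower in germ-led barcodes, and 1 was higher and 4 lower of 15 in fibroblast-led barcodes. These shares of p53 targets and apoptosis genes were near those of all tested genes. The higher one was Apaf1, the scaffold of the apoptosome, whose call was lost without vehicle 1 (edgeR adjusted p = 0.152) and without EV 1 (0.0779). The lower ones included Cdkn1a, an inhibitor of the cell cycle, at 223, 185 and 460 against 927, 1019 and 973, and Bax, a pore former of the outer mitochondrial membrane, at 114, 117 and 74.6 against 338, 313 and 195. For immediate early genes, the rapid response to dissociation and other stimuli, 3 of 14 were lower in germ-led barcodes, and Fosb was higher and 6 were lower in fibroblast-led barcodes, with the Fosb call lost without vehicle 1 (edgeR adjusted p = 0.0571) and without the library as a term (0.262). With nuclear totals as the scale the medians of p53 and apoptosis genes were 0.12 and 0.11, above 0 in both kinds, and those of the other lists stayed below 0.

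Some metabolic and structural genes were called lower in each kind of barcode, and the difference between the kinds was not tested. All 12 tested cytoskeletal and contractile genes were lower in fibroblast-led barcodes (median log2 -2.15), with Actb at 829, 931 and 1131 nuclear CPM against 2421, 2361 and 2632. Of all tested genes 17.8% were lower in fibroblast-led and 12.9% in germ-led barcodes. In germ-led barcodes 6 of 12 were lower and Tmsb4x was higher, at 670 and 509 against 243 and 203 (log2 0.85, SE 0.17, adjusted p = 8.32e-06, edgeR). Of 14 glycolytic genes 10 were lower in fibroblast-led barcodes, led by Gapdh at 520, 671 and 920 against 2526, 2528 and 2614. In germ-led barcodes 5 were lower and Pgk1, a kinase of glycolysis, was higher at 601 and 355 against 220 and 185. Neither Tmsb4x nor Pgk1 was called there with a class lead of at least 3 UMIs, Pgk1 was not called with DESeq2, and the list's median of -0.50 became 0.04 with nuclear totals. The metallothioneins Mt1 and Mt2, which bind metal ions, were called lower in both kinds. In fibroblast-led members Mt1 had 612, 587 and 2249 against 2610, 2441 and 8481 (log2 -2.72, SE 0.14, adjusted p = 3.57e-86, edgeR). In germ-led members it had 751 and 605 against 758 and 631, nearly the same level, and neither gene was called there with nuclear totals as the scale or with DESeq2, nor was Mt1 with DESeq2 size factors in edgeR.

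The calls of cell cycle genes depended on the setting, and the difference between the kinds was not tested. Of 16 replication and S phase genes, 10 were lower in germ-led barcodes (median log2 -1.28) and 2 in fibroblast-led barcodes, where the median of -0.68 became 0.02 with nuclear totals as the scale. Slbp, which binds histone mRNA, had 104 and 115 nuclear CPM in germ-led members against 431 and 436. Of 17 mitosis genes, 11 were lower in germ-led barcodes (median log2 -0.92) and 1 in fibroblast-led barcodes. Of all tested genes 12.9% were called lower in germ-led barcodes and 17.8% in fibroblast-led barcodes, and the fibroblast-led shares of both lists were below that. Against low-mitochondrial germ-led barcodes of like depth, however, 4 of 16 mitosis genes were higher and 1 was lower, with a median of 0.40, and the summed level was 87.1% of the low-mitochondrial level in vehicle 1 and 124% in vehicle 2. No direction is therefore given for this list. In fibroblast-led members it summed to 160%, 143% and 137%, from 98, 70 and 11 UMIs, and its median of -0.12 became 0.57 with nuclear totals.

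Markers of other testicular and blood cells were near the floor of these counts. In the members of vehicle 1, vehicle 2 and EV 1 the Sertoli cell list had 32, 30 and 20 UMIs, mostly Sox9, and its level was 60.3%, 63.3% and 60.1% of the low-mitochondrial level. The endothelial list had 18, 24 and 3 UMIs, the macrophage list 7, 11 and 6, the Leydig cell list 13, 8 and 2, all of them Star, and the erythroid list 10, 2 and 4, all of them Alas2. The Leydig list stood at 640%, 476% and 365% of a low-mitochondrial level of 4.36 to 6.38 nuclear CPM, and single genes of these lists were called in some fits (Star, Alas2, Tek, Csf1r and Uty higher, Sox9 and Egfl7 lower). The other 5 Leydig and the other 4 erythroid markers had no UMI in any member. Y-linked genes had 41, 42 and 3 UMIs, and Uty was called higher in fibroblast-led barcodes from 2, 5 and 0 UMIs. Without vehicle 1 the calls of Star, Alas2, Tek, Csf1r and Uty over all barcodes were lost (edgeR adjusted p from 0.0704 to 0.429), and without vehicle 2 those of Tek and Uty (0.365 and 0.179). These counts do not carry a direction for the lists.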

How the data were processed

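Each of the 3 count matrices deposited by the authors gives raw counts of UMIs for 32285 genes in barcodes called as cells, made with Cell Ranger 7.0.1 on mm10 according to the submitters' processing notes. Totals were 23686047, 27444797 and 10793232 UMIs in vehicle 1, vehicle 2 and EV 1. Groups came from the sample titles. The members and gene lists were chosen with earlier results of these data known. No doublet caller was run here, and the study's limit of 4000 genes was not applied.

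Sums of nuclear-encoded counts were tested with edgeR 4.0.16 (TMM, filterByExpr, quasi-likelihood, library as a term). In the fits by kind the 8 genes of the class sums were left out. Named genes were the 10 with the largest change in each direction among those with adjusted p under 0.05 and the same direction in each library, up to 4 genes per list by smallest p, and others said to be chosen later. The single genes in the list paragraphs that fall outside this rule, such as Apaf1, Fosb, Mfn1, Thy1 and Loxl1, were chosen after their values were seen. Some single genes are not reported here. DESeq2 1.42.0, other scalings, filters, thresholds, depths and left-out libraries were alternatives. Classes by a lead of 3 UMIs and nuclear totals as the scale were added after seeing the data. Intervals of shares are Wilson intervals, and those of differences combine Wilson bounds by Newcombe's method. Gene positions came from GENCODE M21 on GRCm38, the assembly of mm10.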

Additional observations from a re-analysis of the deposited data

Results flagged for a closer look

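The arms moved in opposite directions for 7 sums of gene lists, among those with more than 3 UMIs in the members of each library. The values are log2 ratios of high-mitochondrial over low-mitochondrial nuclear CPM. In germ-led barcodes EV 1 rests on 4 members. There, the subunits of complexes II to IV had -0.58 and -0.76 in vehicle 1 and vehicle 2 and 0.040 in EV 1, the immediate early genes had -0.49, -0.27 and 0.088, the metallothioneins had -0.079, -0.26 and 0.52, and the cytoskeletal and contractile genes had -0.55, -0.50 and 0.23. In fibroblast-led barcodes the germ cell markers outside the class sum had 0.57, 0.87 and -0.41, where the members' sum in EV 1 was 4 UMIs, and the genes for mitochondrial gene expression had 0.12, 0.19 and -0.12. Over all barcodes the replication and S phase genes had -0.75, -0.48 and 0.022. With a single EV library the difference between the arms was not tested in any of these cases.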

How the results depend on the processing

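No paired analysis was possible between the arms because the EV arm has a single library with counts. The germ-led comparison has no version without a library, since a single pair leaves no residual degrees of freedom, and the threshold of 20% was fitted over all barcodes only, in the vehicle libraries. The cause of the changes below was not tested.

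Over all barcodes, genes called higher numbered 1683 and became 4571 with nuclear totals, 1081 without a filter on low counts, 156 without the library as a term, 2 at 20% or more (51 barcodes) and 559 to 1598 without a library. Genes called lower numbered 3267 and became 1783 with nuclear totals, 1901 with DESeq2, 1303 without the library as a term, 303 at 20% or more and 2077 to 3203 without a library. In germ-led barcodes the 483 higher genes became 1426 with nuclear totals, 139 with DESeq2, 318 without a filter, 1052 against barcodes of like depth (375 in vehicle 2) and 37 with a lead of 3 UMIs, and the 1843 lower genes became 819, 683, 1214 and 897 with nuclear totals, DESeq2, like depth and a lead of 3. In fibroblast-led barcodes the 1016 higher genes became 3562 with nuclear totals, 602 with DESeq2, 584 without a filter, 613 without the library as a term, 433 at like depth, 265 with a lead of 3 and 278 to 895 without a library. The 2463 lower genes became 1275 with nuclear totals, 1418 with DESeq2 and 1554 at like depth, and 1672 to 2399 without a library.

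With a minimum of 800 genes the share of high-mitochondrial barcodes was 1.17%, 0.861% and 1.23% in vehicle 1, vehicle 2 and EV 1, which turned the order of the arms. Within fibroblast-led barcodes the ratio of median nuclear-encoded UMIs was 0.420, 0.352 and 0.464, and within germ-led barcodes of EV 1 0.454. The germ-led difference was -16.7 points in vehicle 1 and 7.41 points in vehicle 2 at 20% or more, -2.28, 4.85 and -1.24 points with a class lead of 2 UMIs, -44.3, -36.3 and -5.52 points when thinned to 1000 UMIs, and -21.3 and -11.9 in the vehicle libraries without thinning. At 1000 UMIs members had 3 more genes in vehicle 2 and 73 more in EV 1.

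Among called genes, and medians of lists in which genes called in the median's direction were no fewer than the rest, signs reversed for Gm20754 (-6.95), Csf1r (-6.82) and Uty (-0.073) over all barcodes at 20% or more, for Loxl1 (0.052) and the mitophagy median (0.011) in fibroblast-led barcodes with nuclear totals, for the mitosis median in germ-led barcodes at like depth (0.40), for the Y-linked median in fibroblast-led barcodes (2.56, and -2.20 without EV 1 to 3.22 without vehicle 1), and without a filter for the Leydig median (-2.05 over all and -2.83 in germ-led barcodes) and the erythroid median (-1.52 over all and -1.99 in fibroblast-led barcodes). Of the single genes, 21 of the 147 with an adjusted p lost their call with DESeq2, 32 of 111 with a lead of 3 and 29 of 106 without vehicle 1. At 20% or more 24 of 38 lost their call with the sign kept, and a further 3, which reversed, lost it too. Of 77 list medians, 31 changed sign in at least 1 alternative, called or not, such as the other fibroblast markers over all barcodes (-0.25, with a range of -0.77 to 0.32). Ribosomal protein, respiratory chain and ATP synthase medians kept their sign in all alternatives tried. Depth limits the single genes, since the germ-led members of vehicle 1 and vehicle 2 held 86853 and 104533 nuclear-encoded UMIs.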

Other observations

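EV 2 has 6794 barcodes in its list and shares 22, 18 and 11 of them with vehicle 1, vehicle 2 and EV 1.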
